A study of Mus musculus with 122 samples.

Results

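Binding of transgenic CTCF was mapped with a FLAG antibody in mouse embryonic stem cells that either kept or had lost their own CTCF. The 4 FLAG ChIP-seq libraries treated here, of 122 samples in the series, were chosen by their labels: 2 replicates of CTCF D and 2 of CTCF ID. All of them come from E14Tg2a cells (129/Ola, XY) of the CTCF-AID line, in which both endogenous Ctcf alleles carry an auxin-inducible degron and eGFP, Tir1 is expressed from Rosa26, and a Flag-CTCF-mRuby 2 transgene sits at the Tigre locus under a doxycycline (Dox) promoter. CTCF D cells were given Dox, so that transgenic and endogenous CTCF were both present, and CTCF ID cells were given indole-3-acetic acid (IAA, auxin) with Dox, which degrades the endogenous protein. The sample descriptions give 24 h of treatment, while the treatment protocol gives 2 days, and the lines are clones. The files used are peak lists, so a place without a peak is one that did not pass the caller's threshold, and the read depth behind each list is unknown. File names place both replicates 1 on one sequencing lane and both replicates 2 on another, so values are given within each replicate number as well.

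CTCF is a zinc finger protein that binds a long, GC-rich DNA motif and stops the cohesin ring as it extrudes loops of chromatin, which sets domain boundaries. It also binds many promoters, and its germ line paralogue CTCFL has similar zinc fingers and different ends. The endogenous protein carries no FLAG tag, so the FLAG antibody recovers the transgenic protein, with whatever is crosslinked to it. The comparison of D with ID asks whether the places taken by transgenic CTCF change when the endogenous protein no longer shares them.

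Sequences under the peaks show what the FLAG antibody recovered. A matrix of 20 positions was learned from the 2000 strongest regions that held a peak in all 4 lists, and the most frequent base at each position reads GCCACCAGGGGGCGCTAGAG. Windows 1 kb from the summit hold a match in 5% of cases by the way the score was set. The lines below give the best match at 8 regions named in the results, on the strand of the match in GRCm38. The matched positions are in capitals. The regions come from the strongest promoters of one condition and from the regions named by the enrichment test. From each of these sets, in each direction, the pair with the highest score among the sequences read is given. Named D-only regions outside these sets could score higher, as at Hoxb3 (22.2) and Ube3a (19.7), against 14.9 at Ercc5 and 12.4 at Tfdp2. The first pair had a FLAG peak in both D lists and in neither ID list, at the Ercc5 promoter (chr1:44155455-44155484, minus strand) and the Tfdp2 promoter (chr9:96196013-96196042, plus strand). The second pair had a peak only in ID, at the Ick (chr9:78152314-78152343, minus strand) and Cxcl14 promoters (chr13:56299514-56299543, plus strand). The third pair rose in enrichment in ID, near Asap2 (chr12:20845024-20845053, plus strand) and Actn2 (chr13:12267330-12267359, minus strand), and the last pair fell, near Hmmr (chr11:40715690-40715719, plus strand) and Ralgps1 (chr2:33316835-33316864, plus strand).
Ercc5: taacaTCCAGTAGGGGGAGCACCAAgcctg
Tfdp2: ggctgCCCTCTAGGTGGCAGGGGTCcagcg
Ick: gacacACCAGAAGAGGGCGTTAGCCacatt
Cxcl14: cggtcCCCAGTTGGTGGCGCTGTTTgcata
Asap2: gtgccATCACTAGATGGCGCTAAACctcca
Actn2: cctctGGCACTAGGTGGAGCTCTCCcatgc
Hmmr: cagagGCCAGAAGGTGGCACTGGATaaatt
Ralgps1: aagtgTCCCACAGATGGCAGTCAAGtctcc

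The D lists were longer than the ID lists and their peaks were less enriched. On chromosomes 1 to 19 and X, 41222 and 55408 peaks were listed for D replicates 1 and 2, and 38919 and 31736 for ID replicates 1 and 2. The median fold enrichment over local background was 6.67 and 4.92 in D and 7.72 and 8.15 in ID. Both ID medians thus lay above both D medians, at 7.94 ± 0.304 in ID against 5.79 ± 1.23 in D (SD, n = 2). The difference was 1.06 between replicates 1 and 3.23 between replicates 2, and 2 libraries against 2 cannot give a two-sided exact permutation p below 0.333, which is the value obtained. The median -log10 q of a peak was 16.3 and 15.1 in D and 27.4 and 25.3 in ID, again without overlap (exact permutation p = 0.333). That separation depended on list length. With as many top-ranked peaks from each list, the medians of -log10 q were 21.7 and 27.9 in D and 37.1 and 25.3 in ID, which overlap. The median fold enrichments were then 7.62 and 6.21 in D and 8.78 and 8.15 in ID, still without overlap.

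Peak width did not separate the conditions. The median width was 416 and 663 bp in the D replicates and 581 and 435 bp in the ID replicates, so that D replicate 1 and ID replicate 2 were narrow and D replicate 2 and ID replicate 1 were wide. From D to ID the median rose by 165 bp in replicates 1 and fell by 228 bp in replicates 2 (two-sided exact permutation p = 1). D replicate 2 stood apart in other ways. More than one summit was listed in 29.4% of its peaks against 1.03% to 5.98% in the other lists, and its peaks covered 39.9 Mb against 13.9 to 23.1 Mb. Over the 28851 regions with a peak in all 4 lists, the median peak width was 467 and 978 bp in D and 682 and 450 bp in ID. What set the width of peaks in each library was not tested.

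**Figure D1:**
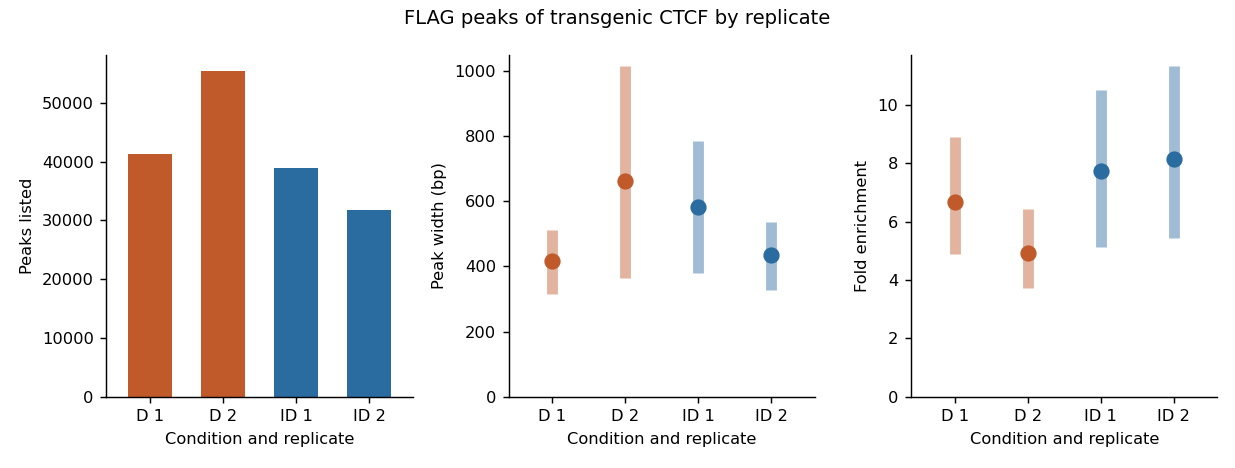
Number of listed peaks (bars), peak width in bp and fold enrichment (points, medians; thick lines, from the 25th to the 75th percentile) for each of the 4 FLAG libraries of transgenic CTCF. Median fold enrichment is 6.67 and 4.92 in D (orange) and 7.72 and 8.15 in ID (blue), while median widths of 416, 663, 581 and 435 bp are interleaved.

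Most places bound in one condition were bound in the other. Of the ID peaks, 88.5% of replicate 1 and 95.4% of replicate 2 overlapped a peak of D replicate 1 by at least 1 bp, and 94.5% and 95.9% overlapped one of D replicate 2. The 2 ID lists overlapped each other by 77.9% of the longer and 96.4% of the shorter. In the other direction, 84.3% and 73.4% of the peaks of D replicate 1 overlapped a peak of ID replicates 1 and 2, and 92.1% one of D replicate 2. For D replicate 2, the longest list, 67.2% were found in D replicate 1, 66% in ID replicate 1 and 54.1% in ID replicate 2. For that list, the shares in the other D replicate and in ID replicate 1 were close to each other.

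Merging all peaks gave 60086 regions. A region is called common here where all 4 lists hold a peak in it, D-only where both D lists and neither ID list do, and ID-only in the opposite case. Common regions numbered 28851 (48.0% of regions), D-only regions 3579 (5.96%) and ID-only regions 198 (0.330%). The largest remaining class, 14851 regions or 24.7%, had a peak in D replicate 2 alone, and 4437 had one in every list but ID replicate 2. The excess of D-only over ID-only regions depended on the lengths of the lists. With the 31736 highest-ranked peaks of each list, 1219 regions were D-only, 1070 were ID-only and 25039 were common. The counts of D-only and ID-only regions with single libraries left out were 18473 and 515 without D replicate 1, 5879 and 894 without D replicate 2, 8027 and 649 without ID replicate 1, and 3851 and 1374 without ID replicate 2.

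**Figure D2:**
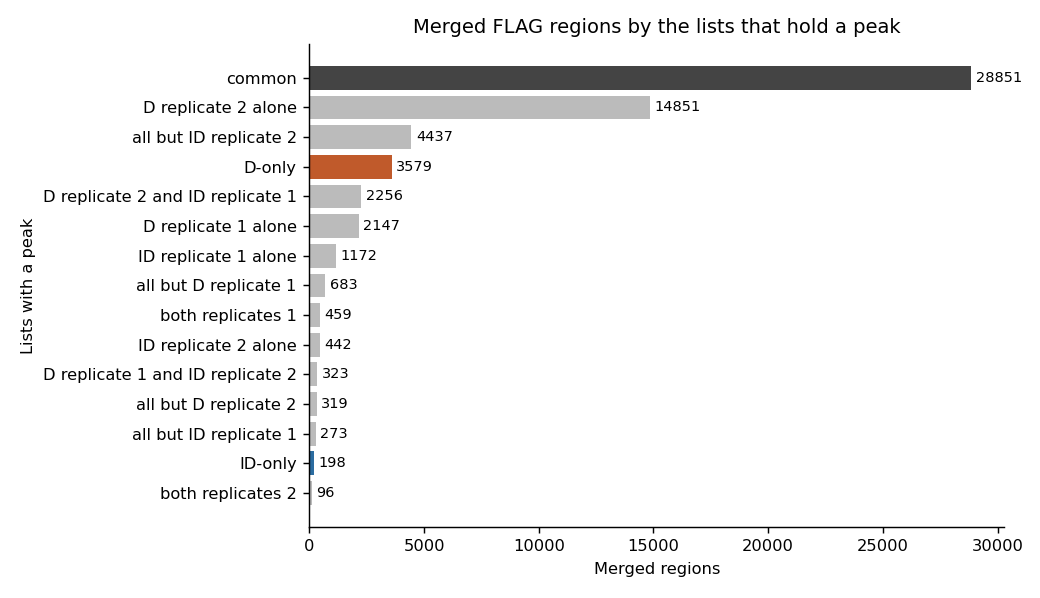
Number of merged regions (horizontal axis) for each combination of FLAG lists that hold a peak (vertical axis). The 28851 common regions (dark) and the 14851 of D replicate 2 alone (grey) are the longest bars, and D-only regions (orange, 3579) outnumber ID-only regions (blue, 198) in lists of unequal length.

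Regions bound in one condition alone were weak peaks. Their median fold enrichment was 4.49 and 4.30 in the D replicates for D-only regions and 4.29 and 4.34 in the ID replicates for ID-only regions. Common regions had medians of 7.89 and 6.15 in D and 9.20 and 8.70 in ID. The merged regions were 496 bp wide in the median when D-only, 340.5 bp when ID-only and 990 bp when common, and a merged region grows with the number of peaks joined in it.

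Strong D peaks were nearly all kept in ID. The 37140 regions with a peak in both D lists were divided into 5 equal groups by the lower of their 2 fold enrichments. In the weakest group, 52.1% had a peak in both ID lists and 26.4% in neither. These shares were 63.2% and 15.4% in the next group, 81.4% and 5.06% in the middle group, 93.6% and 1.20% in the fourth, and 98.1% and 0.202% in the strongest. Only 15 of the 7428 strongest D regions lacked a peak in both ID lists. Seen from ID, 96.0% of the 30051 regions with a peak in both ID lists had one in both D lists, from 84.2% in the weakest group to 100% in the strongest. The pattern also held from list to list. Of the weakest of 5 groups of peaks in D replicate 1, 51% and 29.8% overlapped a peak of ID replicates 1 and 2 and 72.9% one of D replicate 2, and of the strongest group 99.6% to 100% overlapped a peak of each other list. A peak of D replicate 1 was therefore found more often in the other D list, which was also the longest, than in either ID list, and the shares in D and ID cannot be told apart from list length here.

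A larger share of D-only than of common regions lay at promoters. The middle of a region was within 3 kb of an annotated start site in 37.3% of D-only regions (exact 95% interval 35.7% to 38.9%), 28.2% of common regions (27.6% to 28.7%) and 24.2% of ID-only regions (18.4% to 30.8%). These intervals cover counting error over regions, which are not replicates of a condition. The same share was 28.3% and 30.3% of all peaks in the D lists and 27.7% and 27.5% in the ID lists. Within the 5 groups of D enrichment, from the weakest to the strongest, the promoter share of regions without an ID peak was 38.6%, 36.7%, 31.6%, 40.4% and 33.3%, against 30.5%, 29.3%, 30.1%, 27.7% and 24.9% where both ID lists held one. The excess was smaller without D replicate 2, where the share was 29.7% of D-only and 28.1% of common regions. The D-only class then also takes in the regions of D replicate 1 alone, and their part in the smaller excess was not tested. With equal numbers of peaks the excess was seen, at 39.7% against 28.8%. Of the regions with a peak in D replicate 2 alone, 34.5% were at promoters, also above the share of common regions. Whether the excess belongs to the D condition or to D replicate 2 therefore cannot be told apart. Of the other regions, 31.9% of D-only, 31.3% of ID-only and 33% of common regions were in introns, and 27.4%, 40.9% and 35.6% were intergenic.

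The strongest D-only promoter was that of Gdap1, which encodes a protein of mitochondrial fission (chr1:17145182-17146167, 206 bp from the start site), with a fold enrichment of 10 and 8.89 in D replicates 1 and 2. Tfdp2, a partner of the E2F cell cycle factors, followed with 9.11 and 7.71 (chr9:96195472-96196279), then the phosphatase gene Ppm1h with 8.70 and 7.53 (chr10:122678143-122679044) and the cholesterol transporter gene Abcg1 with 8.30 and 7.47 (chr17:31056884-31058131). These promoters had no ID peak although their enrichment in D was above the median of common regions in the D replicates, 7.89 and 6.15. The other D-only promoters among the 12 strongest belonged to Ercc5, which encodes the repair nuclease XPG, the cathepsin gene Ctsh, Zfyve26, Cln8, the ubiquitin ligase gene Fbxo32, Gm1979, the engulfment adaptor gene Gulp1 and Isca1, a gene of iron-sulfur cluster assembly. Their fold enrichment was 6.65 to 9.35 in D replicate 1 and 6.66 to 7.82 in D replicate 2. A match to the CTCF matrix near the summit was present in 5 of the 12.

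ID-only promoters were fewer, in lists of unequal length. By the lower of their 2 fold enrichments, the 12 strongest were less enriched than the 12 strongest D-only promoters. They come from a smaller class, of 48 regions at promoters against 1335. Over all regions the class medians were alike, at 4.49 and 4.30 for D-only and 4.29 and 4.34 for ID-only regions. The strongest ID-only promoter region was 2947 bp from the start of the chemokine gene Cxcl14 (chr13:56299253-56299743), with a fold enrichment of 6.37 and 6.15 in ID replicates 1 and 2. The next were those of Vps16, a subunit of vacuolar tethering complexes, with 4.66 and 5.58, and of Cep164, a protein of centriole appendages, with 4.52 and 4.61. The alcohol dehydrogenase gene Adh1 had 6.91 and 4.34, and Ick, a kinase of cilia, 5.58 and 4.34. Over the 12 strongest, which also held Nfkb1, Prkcb, Ttf1, Gm13420, Fmnl1, 9530077C05Rik and Rbak, enrichment was 3.88 to 6.91 in ID replicate 1 and 3.89 to 6.15 in ID replicate 2, and 4 held a motif match.

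A smaller share of the regions of one condition held the CTCF motif. A match within 50 bp of the summit was found in 57.8% of common regions (exact 95% interval 57.3% to 58.4%, the training regions left out), in 31% of D-only (29.5% to 32.6%) and in 34.3% of ID-only regions (27.8% to 41.4%). The matrix was learned from common regions, which favours them. The gap did not follow the strength of the D peak: from the weakest to the strongest of the 5 groups, D-only regions held a match in 31.5%, 28.5%, 35.9%, 32.6% and 33.3%, and common regions in 58.3%, 55.5%, 56.8%, 57.8% and 60.4%. It was about as wide without D replicate 2, at 32.2% of D-only and 61.8% of common regions, and without D replicate 1 it was 17.1% against 56.2%. The ID-only share ranged from 14.8% without ID replicate 1 to 41.2% without D replicate 2. D-only promoters held a match in 30.1% and D-only intergenic regions in 32.8%. Of the regions seen in 1 list alone, 15% held it for D replicate 2 and 12.6% for D replicate 1.

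**Figure D3:**
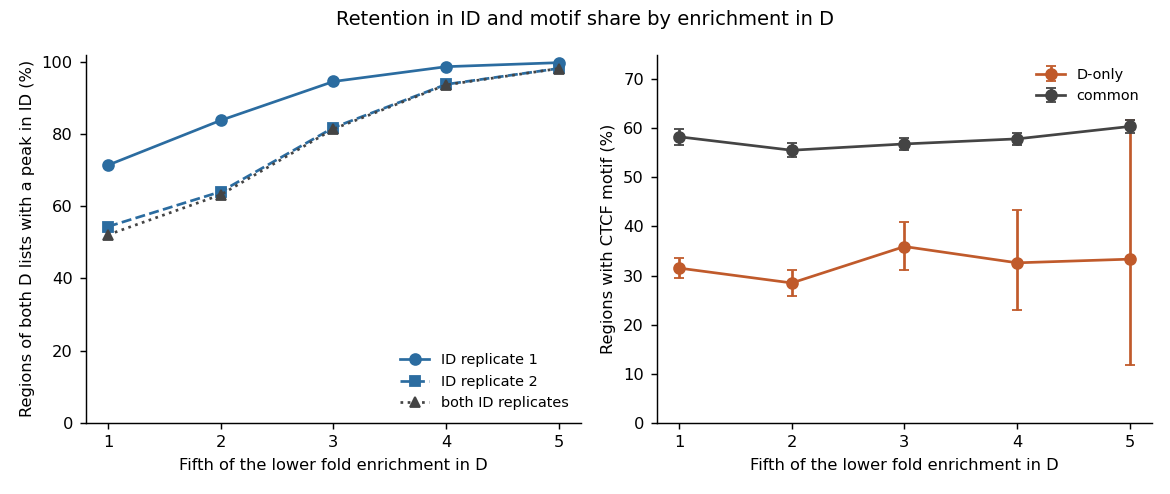
Left, share in percent of regions with a peak in both D lists that had a peak in ID replicate 1, ID replicate 2 or both, by group of the lower fold enrichment in D (5 equal groups, weakest first). Right, share in percent of D-only (orange) and common (dark) regions with a CTCF motif match within 50 bp of the summit, by the same groups, with exact 95% binomial intervals. Retention in both ID lists rises from 52.1% to 98.1%, while the motif share stays near 28.5% to 35.9% in D-only and 55.5% to 60.4% in common regions.

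A pair of other FLAG libraries of the same line and treatment helps to judge which regions recur. In these, ID cells were given a mock treatment (the control of an RNase experiment), their labels give 48 h, and 23919 and 25374 peaks are listed. Both mock lists held a peak at 59.7% of common regions (exact 95% interval 59.2% to 60.3%), at 3.86% of D-only (3.25% to 4.54%) and at 19.2% of ID-only regions (14% to 25.4%). D-only regions thus seldom had a peak in both mock lists. The mock libraries are ID cells and D-only regions were chosen for having no ID peak, which favours a low share. Among common regions the share rose from 16.9% in the weakest to 96.0% in the strongest group of ID enrichment. The groups of D enrichment match strength in D and not in ID. In the weakest of them, the share was 5.36% of D-only and 48.1% of common regions. In the 2 strongest groups it was 0% of 89 and of 15 D-only regions, against 63.1% and 72.5% of common regions. These counts of 0 cover listed peaks and not reads. Set against common regions of their own strength, ID-only regions did not have the lower share: in the weakest group of ID enrichment, which holds 176 of the 198, the share was 21.6% of ID-only and 16.9% of common regions. Without D replicate 2 the shares were 10.9% of D-only and 9.40% of ID-only regions, and without D replicate 1 they were 1.58% and 40%. Regions of D replicate 1 alone, which join the D-only class without D replicate 2, had a share of 22.9%. Those in every list but D replicate 2, which join the ID-only class without D replicate 1, had 53.3%. Both kinds lay largely in repeats, with 75.8% and 75.6% of the sequence near the summit repeat-masked. For the common class, the share was 52.3% to 59.6% with single FLAG libraries left out. 

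**Figure D4:**
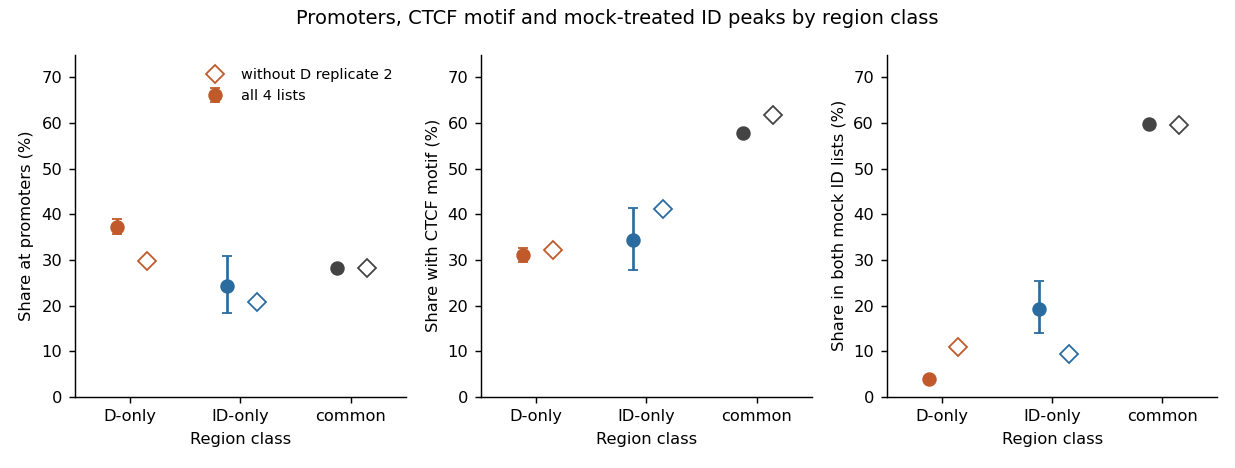
Share in percent of D-only, ID-only and common regions that lay at promoters (left), held a CTCF motif match (middle) or had a peak in both mock-treated ID lists (right). Filled circles with exact 95% binomial intervals are the classes from all 4 lists, and open diamonds the same shares without D replicate 2. The promoter share of D-only regions drops from 37.3% to 29.7%, while their motif share goes from 31% to 32.2% and common regions stay highest in motif and mock shares.

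A smaller share of D-only than of common regions was also bound by the paralogue, although the strongest D-only promoters nearly all were. In FLAG ChIP-seq of a CTCFL transgene with Dox, the longer list, that of replicate 1, held a peak at 36.9% of D-only, 30.3% of ID-only and 61.4% of common regions. Among D-only regions, this CTCFL list covered 51.2% of those at promoters, 28% of those in introns and 27.8% of those between genes. All 4 CTCFL lists, of Dox and of IAA with Dox, held a peak at 31.3% of D-only promoters and at 56.6% of common promoters. Of the 12 strongest D-only promoters, 11 had a peak in both CTCFL lists with Dox, 10 in all 4 CTCFL lists, and 0 in both mock lists. Of the 12 strongest ID-only promoters, 4 had a peak in CTCFL replicate 1 with Dox, 1 in all 4 CTCFL lists and 1, at the formin gene Fmnl1, in both mock lists. The CTCFL cells are another clone.

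Cohesin peaks lay at each class to a different extent. RAD21 peaks of the CTCF line with Dox (replicate 1, 22765 peaks) overlapped 51.5% of common, 23.2% of ID-only and 10.4% of D-only regions. The longer RAD21 list of ID, that of replicate 1, gave another order, with 24.2% of ID-only, 8.09% of common and 4.86% of D-only regions. Replicate 2 with Dox lists 3756 peaks and the ID replicates list 8593 and 784, so no comparison of RAD21 between D and ID was made.

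Some classes lay in repeats. The sequence within 100 bp of the summit was repeat-masked to 23.8% on average in common regions, 29.3% in D-only and 50.7% in ID-only regions. It was 75.8% in the 2147 regions with a peak in D replicate 1 alone, which join the D-only class when D replicate 2 is left out. It was 90.0% in the 323 regions with peaks in D replicate 1 and ID replicate 2 alone, which held a motif match in 1.24%, and 75.6% in the 319 regions found in every list but D replicate 2. RAD21 peaks of ID replicate 1 lay at 74.6% and 59.9% of the last 2 classes. The part of repeats in the ID-only class was not tested.

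Enrichment at the 28851 common regions was compared on a log2 scale after each list was centred on its median, so a change is relative to the other regions of the list. With limma, 37 regions passed a Benjamini-Hochberg adjusted p under 0.05, which is 0.128% of those tested: 3 were higher in ID (0.0104%) and 34 lower (0.118%). An unadjusted p under 0.05 was reached by 3245 regions. The count depended on scaling and on single libraries: 1 region passed without centring, 0 after quantile normalization, 0 with the replicate number, which is the lane, as a term, 0 without ID replicate 2 and 17 without D replicate 2. The adjusted p-values given for single regions are therefore those of the fit without the lane. The excess of falls depended on scaling too. Without centring, the 1 region that passed was higher in ID. On -log10 q in place of fold enrichment, 1672 regions passed as higher in ID and 1703 as lower. The ranks of the regions agreed most closely between the ID replicates (Spearman rank correlation of 0.83 across regions) and least between D replicate 2 and ID replicate 2 (0.44). D replicate 1 ranked regions more like the ID replicates (0.76 with each) than like D replicate 2 (0.60). These are correlations across regions in shared libraries and carry no test.

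The 3 regions that rose were all intergenic and held a motif match. One lay 6767 bp from Actn2, the gene of a muscle alpha-actinin (chr13:12267070-12267589), with a fold enrichment of 3.93 and 3.81 in D and 12.1 and 12 in ID. Its log2 change was 1.28 (SE 0.273, limma adjusted p = 0.024). The next lay 145431 bp from the ARF GTPase regulator gene Asap2 (chr12:20844617-20845439) and went from 5.33 and 5.29 to 14.5 and 13.5 (log2 change 1.04, limma adjusted p = 0.024). The third was on chromosome 18, with Gramd3 as the nearest protein-coding gene, 185316 bp away, and had 6.46 and 5.86 in D and 14.1 and 17.5 in ID (log2 change 0.99). At all 3 the ID libraries exceeded the D libraries without overlap, which the choice by a test on these values favours. The mock libraries, which are ID cells too, held no peak at any of them, although 96% of the common regions in the strongest of 5 groups by ID enrichment, to which all 3 belong, had a peak in both mock lists.

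The largest falls were of similar size. In an intron of Ralgps1, a Ral exchange factor gene, fold enrichment was 8.18 and 6.34 in D and 3.40 and 3.55 in ID (chr2:33316314-33317393, log2 change -1.41). An intronic region of Specc1l, which encodes a cytoskeletal protein, had 10.6 and 7.18 in D and 5.58 and 3.25 in ID (chr10:75277314-75278241, log2 change -1.40). The region 7933 bp from the immediate early gene Ier2 had 12.3 and 8.73 in D and 6.32 and 4.07 in ID (chr8:84654530-84655308, log2 change -1.40, limma adjusted p = 0.0096). Each of these regions had a peak in all 4 lists, as the test required. Their D and ID values did not overlap, which the choice by that test favours. The promoter of Dhx57, a helicase gene, had 9.65 and 8.89 in D and 3.99 and 5.15 in ID (chr17:80290904-80291914), the region near Hmmr, which encodes a hyaluronan receptor of the mitotic spindle, 8.81 and 6.10 in D and 3.99 and 3.25 in ID (chr11:40715384-40716185), and that in an intron of Srgap3 10.8 and 8.91 in D and 6.22 and 3.79 in ID (chr6:112781354-112782380).

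**Figure D5:**
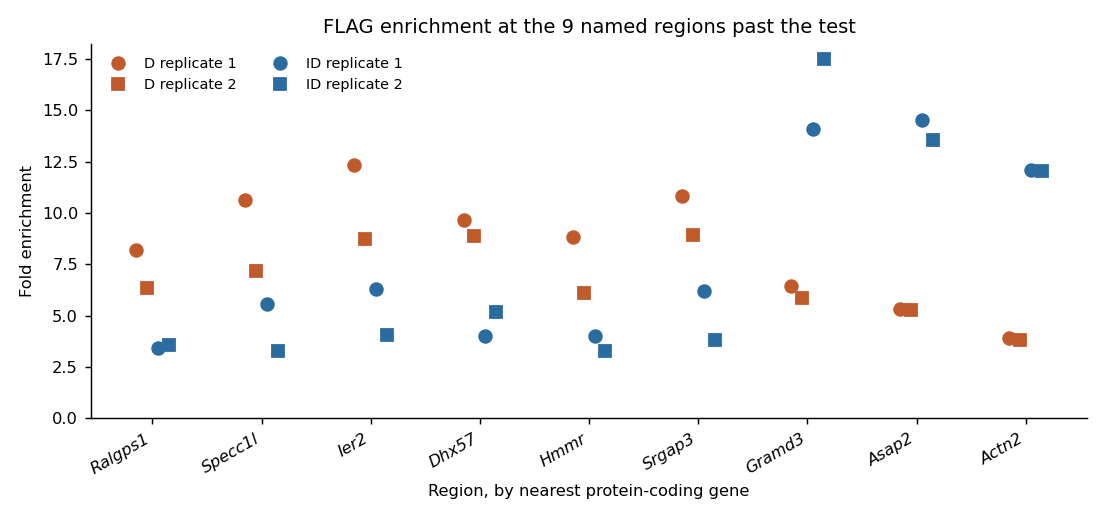
Fold enrichment (vertical axis) of the FLAG peak in each D (orange) and ID (blue) library, replicates 1 (circles) and 2 (squares), at the 6 regions with the largest fall and the 3 that rose past the limma test, named by the nearest protein-coding gene. D and ID values do not overlap at any of the 9, which were chosen by a test on these same values. At Actn2 the values are 3.93 and 3.81 in D and 12.1 and 12 in ID.

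As a group, the 34 regions that fell had median fold enrichments of 9.67 and 8.10 in D and 5.45 and 4.34 in ID. A motif match was found at 18 and a promoter at 9. Both mock lists held a peak at 2 of them. That share follows ID enrichment: it was 16.9% and 32.4% of common regions in the 2 weakest of 5 groups by ID enrichment and 59.7% of all common regions. Over all 8499 common regions without a peak in either mock list, the median log2 change from D to ID was -0.29, at -0.09 in replicates 1 and -0.50 in replicates 2, while over the 17232 with a peak in both it was 0.14. Promoters (0.04), introns (-0.01) and intergenic regions (0.06) had medians close to 0.

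Between 0 and 8 members of each gene list had a region of one condition at a start site. Among all 21755 protein-coding genes, 5.24% had a D-only region within 3 kb of a start site, 0.142% an ID-only region and 24.8% a common one. Of 39 Hox genes, the body axis regulators, 3 had a D-only region (Hoxb3, Hoxb7 and Hoxb8, of which the last 2 share a region) and 12 a common one. Of 57 clustered protocadherin genes, 8 had a D-only and 40 a common region. Of 41 imprinted genes, 1 had a D-only region, the ubiquitin ligase gene Ube3a (5.61 and 7.53 in the D replicates), and 12 a common one. Of 23 genes of cohesin, its loaders and CTCF partners, 3 had a D-only region: the meiotic cohesin gene Rec8 (3.79 and 4.72), Ctcfl (5.53 and 4.16) and the zinc finger gene Zfp143 (4.09 and 4.05).

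In the remaining lists, of 30 pluripotency genes 1 had a D-only region (Mycn, a MYC family gene, 3.42 and 3.33), and of 25 early lineage regulators 0 did. The list of 10 testis and cancer-testis genes named by the study, which drew on ChIP-seq and RNA-seq of CTCFL in the same series, held 2 (Magee1 and Adamts2). The MYC and ribosome biogenesis list held 3 of 19, or 15.8% (Mxd3, Nop58 and Polr1a), and the cell cycle and p53 list 2 of 29 (Gadd45a and Cdkn2a). Beside the 5.24% of all protein-coding genes, each of these shares rests on 3 genes or fewer. No gene of any of the 9 lists had an ID-only region, at a background of 0.142%. Of the list members with a D-only region, only Adamts2, a procollagen protease gene, was called in RNA between ID and D (log2 change -1.57), while Rec8 (0.92), Mycn (-0.86) and Hoxb3 (1.13) did not pass both thresholds and the 8 protocadherins had too little RNA to test.

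At Ctcf itself, a common region 28 bp from the start site (chr8:105636475-105637339) had a fold enrichment of 9.62 and 5.75 in D and 4.93 and 5.10 in ID. Igf2, the insulin-like growth factor gene with a well known CTCF-dependent insulator upstream of H19, had a common region 5520 bp from a start site (chr7:142671934-142672739), with 6.61 and 5.29 in D and 7.44 and 6.85 in ID. The D and ID fold enrichments, which are not centred, overlapped at neither of these regions. Neither was among those past the limma test. After centring, the log2 change was -0.93 at the Ctcf region and -0.09 at the Igf2 region (limma adjusted p = 0.14 and 0.92). Other common regions near Ctcf had values that overlapped. These were 7.41 and 6.01 in D and 7.25 and 5.42 in ID at chr8:105660917-105661875, and 10.85 and 8.25 in D and 10.78 and 11.74 in ID at chr8:105685463-105686625. No region was listed within 10 kb of H19 in the lists used here.

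RNA of the same conditions comes from other libraries, 3 of CTCF D and 3 of CTCF ID, beside 3 of CTCF I (IAA alone) and 2 of CTCF U (untreated). The pluripotency markers Pou5f1, Sox2, Nanog, Esrrb, Klf4, Zfp42, Tdgf1 and Utf1 summed to 128386 to 134247 normalized counts in D and 87245.5 to 88481.8 in ID, and none was near 0. The markers of mesendoderm summed to 294 to 303 in D and 245 to 289 in ID, those of endoderm to 2001 to 2625 and 2355 to 2732, those of neural cells to 436 to 545 and 259 to 283, those of trophectoderm to 93.7 to 131 and 144 to 163, and those of fibroblasts or feeders to 1455 to 1719 and 1508 to 1782, with Dcn listed at 0 in all D and ID libraries. These sums join markers that moved apart. Of the mesendoderm markers, Mixl1 had 24 to 33 in D and 62 to 76 in ID, and T 13 to 34 and 32 to 41. Eomes had 142 to 158 in D and 100 to 131 in ID, and Gsc 85 to 109 and 43 to 51. Of the endoderm markers, Sox17 had 203 to 250 in D and 412 to 483 in ID, and Foxa2 62 to 89 and 126 to 131. Gata4 (1039 to 1395 and 1073 to 1231) and Gata6 (682 to 944 and 709 to 932) overlapped. Of the trophectoderm markers, Cdx2 had 8.5 to 10.5 in D and 15 to 39 in ID, and Hand1 76 to 121 and 124 to 128. Elf5 was low in both, at 1.06 to 7.37 and 0 to 4.69. Most of the neural sum was Sox1, with 419 to 527 in D and 229 to 272 in ID. In bulk RNA, fewer cells of a type and less RNA per cell cannot be told apart. Ctcf had 3845, 3850 and 3550 normalized counts in D, 3910, 4137 and 4142 in ID, 4622, 4371 and 4231 in I and 4712 and 4691 in U. It was thus not higher in the libraries labelled D or ID than without Dox, and since IAA acts on the protein, Ctcf RNA checks neither label.

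In the limma fit of RNA, 1864 of 16705 genes, or 11.2%, differed between ID and D by more than 1 on the log2 scale with an adjusted p under 0.01: 564 were higher in ID (3.38%) and 1300 lower (7.78%). Genes with a D-only region at a start site numbered 1072, and 141 of them were called (13.2%), 29 higher and 112 lower (10.4%). Over all genes tested these shares were 11.2% and 7.78%, and 12.6% of the 4894 genes with a common region were called. Genes with a D-only and no common region were called in 11.2% of 722 cases, the same share as over all genes, and their median log2 change was 0.02. Of 29 genes with an ID-only region, 6 were called, 1 of them higher in ID.

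Of the 141 called genes with a D-only region at a start site, 112 were lower in ID, beside 1300 of the 1864 called over all genes. The 10 largest changes among the 141 were all falls. For 6 of the 10 (Cdk14, Sorcs2, Ncald, Elmo1, Ank2 and Rabgap1l) a common region was also listed at a start site of the gene. Transgenic CTCF thus kept a peak at a start site of these genes in ID, which need not be the start site with the D-only region. The kinase gene Cdk14 had 72.6, 45.7 and 41.3 normalized counts in D and 0, 1.17 and 1.51 in ID (log2 change -4.90, SE 0.600, limma adjusted p = 1.56e-05), and its D-only region had a fold enrichment of 5.61 and 5.50. The Rac regulator gene Elmo1 had 293, 295 and 300 in D and 13.3, 21.1 and 16.6 in ID (log2 change -4.07, SE 0.213), with 3.52 and 4.73 at its region. Ank2, which encodes an ankyrin of the membrane skeleton, had 465, 580 and 527 in D and 47.0, 30.5 and 24.2 in ID (log2 change -3.96), with D-only regions at 2 start sites. In each, every D library was above every ID library, which the choice by size of change favours.

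The others in this set were the sorting receptor gene Sorcs2 (log2 change -4.27), the calcium sensor gene Ncald (-4.19), the F-box gene Fbxl17 (-4.00), Gulp1 (-3.99), the bicarbonate transporter gene Slc4a4 (-3.65), the Rab GTPase activator gene Rabgap1l (-3.59) and the recombination gene Rad51b (-3.56). Rad51b shares its region with the neighbouring Zfyve26, whose RNA had a log2 change of -0.36 and was not called. Whether binding bears on these RNA levels was not tested.

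At the strongest promoters of one condition, 5 genes were called in RNA, beside 11.2% of all genes tested. Of the 12 strongest D-only promoters, 10 had a gene with enough RNA to test and 3 were called, all lower in ID: Tfdp2 (1754, 1704 and 1530 normalized counts in D and 685, 844 and 757 in ID, log2 change -1.13), Ppm1h (244, 289 and 284 in D and 24.1, 29.3 and 27.2 in ID, log2 change -3.29) and Gulp1. Ercc5, Cln8 and Isca1 had log2 changes of 0.17, 0.49 and 0.25 and were not called. All 12 genes at the strongest ID-only promoters were tested, and of these Ick (598, 651 and 525 in D and 186, 216 and 213 in ID, log2 change -1.52) and the protein kinase C gene Prkcb (-1.64) were called, both lower in ID. Cxcl14, with the strongest ID-only promoter, had 334, 364 and 373 in D and 534, 543 and 577 in ID, a log2 change of 0.63 that stayed under the threshold of size.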

How the data were processed

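The authors made ChIPmentation libraries with an anti-FLAG antibody, aligned the reads with Bowtie2 to GRCm38/mm10, kept uniquely mapped reads, removed duplicates and called peaks per replicate with MACS. The methods and the file names differ in the MACS version, the control library is not given in the sources used here, and the lowest -log10 q in the deposited lists is 2.0. The fold enrichment (a ratio over local background) and -log10 q values were computed by the authors with MACS, as deposited. The RNA signal values, as deposited, are counts of each gene scaled by a size factor of its library. In the libraries used, 100% of values of up to 500 reads came out as whole reads within a tolerance of 0.1, which gave 16270957 to 28917040 reads a library. The RNA table has 27 further columns that were not used here.

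Members and gene lists were chosen with earlier results of these data known. Peaks on chromosomes 1 to 19 and X were merged where they shared at least 1 bp. Start sites (130592 positions of 53843 genes) are those of GENCODE vM21. The motif matrix was grown from the 9-base word most enriched at the summits of the 2000 strongest common regions, over 10 rounds with 0.5 added to each base count, and a match scores above the 95th percentile of windows 1 kb away, on either strand. Sequences were read from GRCm38 with pysam 0.24.0. Intervals for shares are exact (Clopper-Pearson, 95%). Log2 fold enrichment at common regions and log2(RNA value + 1) were fitted with limma 3.58.1 (eBayes with trend) in R 4.3.3, the RNA over the 11 libraries of the line with a mean of at least 10. RNA fold changes are on that scale and understate changes of low genes. No source says that replicates are separate cultures, so p-values measure the spread between these samples. Both fits and the motif search were tested on simulated data.

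Named are the 12 D-only and the 12 ID-only regions within 3 kb of a protein-coding start site with the highest value of the lower fold enrichment, up to 6 regions a direction past the enrichment test, up to 10 genes called in RNA with a D-only or ID-only region at a start site, list members with such a region, and Ctcf, H19 and Igf2. For protocadherins only counts are given. Genes named by the nearest start site are not shown to be targets. Alternatives were a -log10 q of at least 5, equal numbers of top-ranked peaks, summit windows, other overlaps, promoter and motif settings, other scalings, replicate blocks, edgeR 4.0.16 and DESeq2 1.42.0 on the recovered reads, and leaving out each library.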

Additional observations from a re-analysis of the deposited data

How the results depend on the processing

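Counts of regions depended on list length and overlap. D-only regions numbered 1219 with equal numbers of top-ranked peaks, and ID-only regions 1070. Sites of both replicates gave 8296 D-only and 1203 ID-only sites by any overlap, and 18916, 12079 and 18238 D-only, ID-only and common sites at an overlap of 66% of both. With single libraries left out, D-only regions ranged from 3851 to 18473 and ID-only regions from 515 to 1374, in part since a region then needs a peak in fewer lists. Promoter shares of D-only, ID-only and common regions were 22.1%, 9.60% and 13.8% within 1 kb, 30.3%, 15.2% and 20.8% with protein-coding start sites alone, and 39.7% and 28.8% for D-only and common regions with equal numbers of peaks. Without single libraries they ranged from 29.7% to 36.1% in D-only and from 17.7% to 20.7% in ID-only regions. Motif shares in the same order were 17.4%, 26.8% and 47.5% at the 99th percentile, 46.1%, 50.0% and 80.3% within 100 bp, and 34.4%, 47.3% and 59.6% at a -log10 q of at least 5. With single libraries left out, an alternative added after seeing the data, they ranged from 17.1% to 33.5%, from 14.8% to 41.2% and from 53.4% to 61.8%. The shares in both mock lists, likewise added later, were 12.6% of ID-only and 63.0% of common regions at a -log10 q of at least 5, and without single libraries 1.58% to 10.9% of D-only, 9.40% to 40% of ID-only and 52.3% to 59.6% of common regions. The D-only share stayed under the common share in motif and mock lists under each alternative run.

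The count of 37 regions past the enrichment test was 1 without centring, 0 after quantile normalization, 3811 with missing values set to the lowest fold enrichment, 63 at a -log10 q of at least 5, 57 with summit windows and 3375 on -log10 q in place of fold enrichment. It ranged from 0 to 40 with single libraries left out, where the lone library is assumed to vary like the others. Over the alternatives, the 9 named regions kept their direction in each fit, kept their call in 44 and lost it in 57. The differences between replicates 1 and 2 in D and in ID had a correlation of -0.53 across regions, so they tended to run in opposite directions. Replicate numbers follow the lane, and each condition gives a single such difference. Whether replicate numbers pair the samples therefore cannot be told from this correlation. With a replicate block 0 regions were called, and 2434 with the crossed pairing, which was chosen after the data were seen. In RNA, a replicate block called 1826 genes, edgeR 1882 and DESeq2 1916, and all counts lay within 1.5 times the 1864 of limma. The cause of these shifts was not tested. Depth is unknown for the peak lists, so a missing peak at a weak region is no sign of absence.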
